A study of Mus musculus with 6 samples.

Results

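The genes of major histocompatibility complex (MHC) class II and its invariant chain were examined in frontal cortex of GFAP-IL6 and wild-type (WT) mice. Members were the rows of the deposited count table whose symbol was Cd74, H2-Aa, H2-Ab1, H2-Eb1, Ciita, H2-DMa or H2-DMb1. All 7 were found, each in 1 row, among 33000 genes, and all 7 passed the filter on low counts. TruSeq libraries, the standard Illumina protocol that sequences mRNA along its full length, had been generated from 3 WT mice and 3 homozygous GFAP-IL6 mice, all 3 months old and all labelled with the C57BL/6 strain. In GFAP-IL6 mice a transgene driven by the Gfap promoter makes astrocytes secrete IL6, a cytokine of inflammation, and WT mice lack it. Whether the WT mice were littermates is not given in the sources used here. RNA came from dissected tissue, so that all cell types of the cortex contributed to each value, and more cells of a type cannot be told apart from more RNA per cell.

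Class II molecules are pairs of an alpha and a beta chain that present peptides from ingested proteins to CD4+ T cells. In the C57BL/6 strain the pair at the cell surface is I-A, made of H2-Aa and H2-Ab1, while the beta chain H2-Eb1 lacks a partner because the alpha chain gene of I-E is not expressed in this strain. Cd74, the invariant chain, blocks the peptide groove until it is cut by endosomal proteases, and H2-DMa and H2-DMb1 form the DM molecule that exchanges the remaining fragment for peptide. Ciita is the coactivator that switches on the family. It is recruited to class II promoters by RFX, CREB and NF-Y factors bound at a shared set of sites named the S, X and Y boxes. In healthy brain class II is carried mainly by macrophages of the brain borders, and microglia acquire it in inflammation.

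The promoters of members are shown first because Ciita acts on the family through sites in class II promoters. The RefSeq promoter table (GRCm38.p6, 250 bases before to 50 bases after a gene start) held H2-Aa, H2-Eb1, H2-DMa and H2-DMb1, which are 4 of the 7 members, in 5 windows. The Y box was searched as ATTGG on both strands, and was present in 37.41% of 32851 windows of all genes. The X1 core AGNAAC followed by ATTGG within 40 bases, again on both strands, was present in 1.83% of them and includes a Y box by definition. Both H2-Eb1 and H2-DMb1 held this combined motif, with the X1 core starting 92 and 95 bases before the gene start and 27 and 28 bases between X1 core and Y box. The window of H2-Aa held a Y box that began 48 bases before the start, without an exact match to the combined motif. The letters ggcaac, which differ from the X1 core in the first letter only, precede this Y box. The search did not allow such variants, so the lack of a match does not show that an X box is absent. Of the 2 windows of H2-DMa, neither held the combined motif. They lay at chr17:34122582-34122881 and chr17:34125268-34125567 (plus strand), inside the annotated span of the gene, 34119541 to 34139101. Any other start of H2-DMa was not searched, so a motif elsewhere in this gene was not tested. The windows printed below lay at chr17:34305617-34305916 (H2-Eb1, plus strand), chr17:34152941-34153240 (H2-DMb1, plus strand) and chr17:34287774-34288073 (H2-Aa, minus strand). Capitals mark the X1 core and the Y box that follows it, or the Y box alone in H2-Aa. A match describes letters only and does not show a bound site.
H2-Eb1: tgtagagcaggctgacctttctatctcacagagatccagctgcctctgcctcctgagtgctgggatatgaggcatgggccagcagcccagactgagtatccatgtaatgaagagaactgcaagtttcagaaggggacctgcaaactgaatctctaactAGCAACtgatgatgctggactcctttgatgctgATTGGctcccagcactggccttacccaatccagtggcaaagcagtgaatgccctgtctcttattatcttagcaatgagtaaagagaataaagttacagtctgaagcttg
H2-DMb1: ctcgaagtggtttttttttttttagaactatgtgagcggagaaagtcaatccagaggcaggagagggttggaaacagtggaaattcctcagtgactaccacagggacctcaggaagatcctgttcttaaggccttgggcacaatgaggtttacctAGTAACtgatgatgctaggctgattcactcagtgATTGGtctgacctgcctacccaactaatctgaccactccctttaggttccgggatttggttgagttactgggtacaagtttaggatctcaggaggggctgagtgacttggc
H2-Aa: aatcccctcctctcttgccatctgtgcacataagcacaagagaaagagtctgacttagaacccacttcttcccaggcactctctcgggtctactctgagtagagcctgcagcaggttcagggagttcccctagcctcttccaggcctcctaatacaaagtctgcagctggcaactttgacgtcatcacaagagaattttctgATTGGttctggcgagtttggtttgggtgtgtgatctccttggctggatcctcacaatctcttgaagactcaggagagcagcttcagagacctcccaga

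Library totals were between 7559524 and 16877001 counts, and each GFAP-IL6 library was shallower than each WT library. Between 224 and 394 counts per library fell on the 7 members together. Levels of a gene across libraries are given in CPM, its counts scaled to the TMM-adjusted library total, and levels between genes in TPM, which also divides by gene length. As a check of the labels, Il6 was counted 0, 2 and 0 times in the WT replicates and 12, 10 and 24 times in those of GFAP-IL6. The level of Gfap was 94.5 ± 24.8 CPM in WT and 678 ± 179 CPM in GFAP-IL6 (SD, n = 3 each). Counts of Il6 do not separate the transgene from the endogenous gene. The cortical markers Slc17a7, Tbr1 and Neurod6 were present in every library. Of 6 neuron and 6 astrocyte markers 0 were called by edgeR, with 2 of each at an unadjusted p under 0.05. The neuron markers were Gad1 and Gad2, with log2 fold changes of -0.22 and -0.17. The astrocyte markers were Aqp4 and Aldh1l1, with log2 fold changes of 0.42 and -0.21. WT replicate 3 stood apart by choroid plexus genes, with 8766 counts of Ttr, against at most 358 in any other library. This library also had the lowest CPM among WT libraries for all 7 members, so the fold change of each member and each ratio between members is also given without it. The part of choroid plexus tissue in those values was not tested.

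Of the 7 members, 3 were higher in GFAP-IL6 at an adjusted p under 0.05, namely H2-Ab1, H2-Eb1 and Cd74, with fold changes from 2.55 to 3.30. The background was 2.65% of the 15341 genes tested that were higher at this threshold and 0.209% that were lower. The same 3 members had a log2 fold change over 1 and were thus differentially expressed genes (DEGs) as the study defined them, a status reached upward by 1.36% of genes tested. In 6 members all GFAP-IL6 libraries lay above all WT libraries, a pattern found in 13.8% of genes tested. H2-DMa showed the opposite order, which was found in 12.7%. An unadjusted p under 0.05 with a positive fold change was reached by 6 members, and by 11.1% of genes tested. The median log2 fold change was 1.18 over the 7 members and -0.0038 over all genes tested, and that of the members was 0.81 without WT replicate 3. The number of members called depended on the libraries, with 5 called without WT replicate 2, 2 without WT replicate 3 (Cd74 and H2-Ab1), 1 without GFAP-IL6 replicate 1 or 2 (H2-Ab1) and 0 without GFAP-IL6 replicate 3. In that last fit by edgeR, the only tool run on it, 5 members were higher at an unadjusted p under 0.05.

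**Figure D1:**
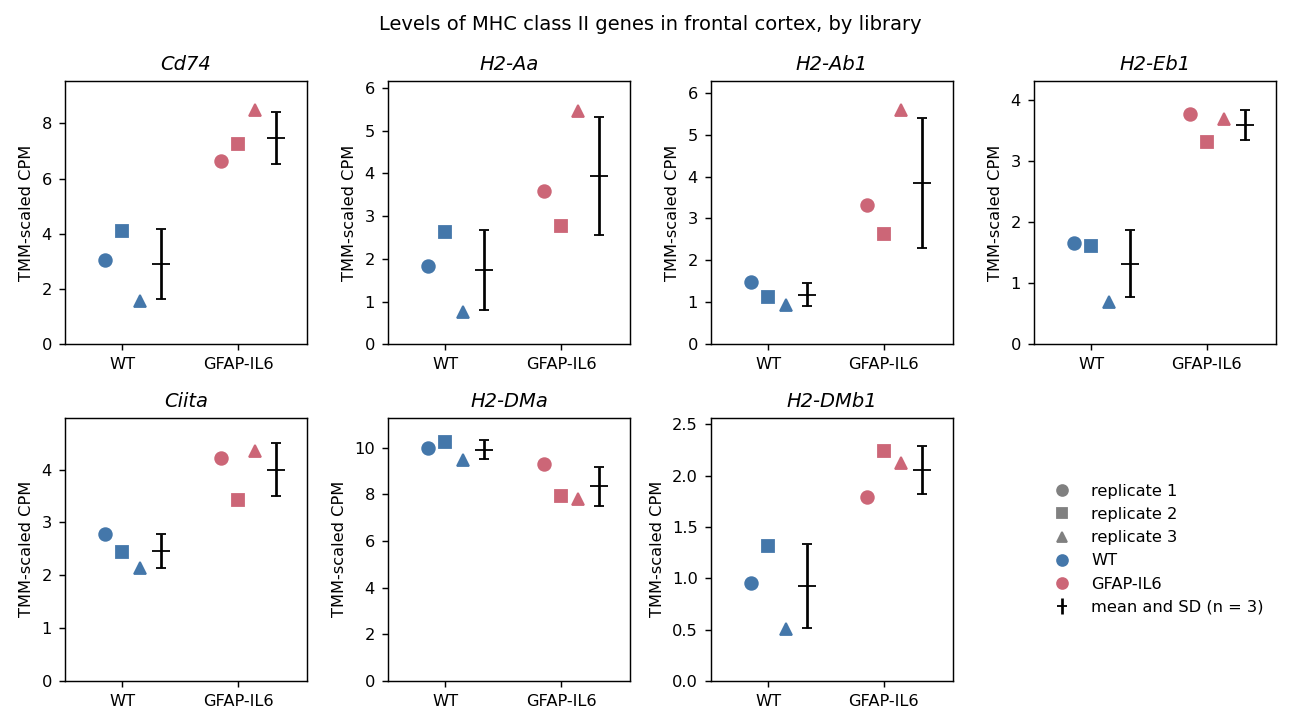
TMM-scaled CPM of each member in every library, with circles, squares and triangles for replicates 1, 2 and 3 and the mean and SD of each group beside them. All GFAP-IL6 points lie above all WT points in 6 panels, and below them in that of H2-DMa, while the triangle of WT replicate 3 is the lowest WT point in every panel.

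Cd74, the invariant chain (ENSMUSG00000024610.12), is encoded outside the MHC locus. Its level was 3.05, 4.12 and 1.57 CPM in WT replicates 1, 2 and 3 and 6.63, 7.26 and 8.48 CPM in GFAP-IL6. The lowest GFAP-IL6 library was thus above the highest WT library. Cd74 rose from 2.91 ± 1.28 to 7.46 ± 0.941 CPM (SD, n = 3 each), with a log2 fold change of 1.35 (SE 0.28, adjusted p by edgeR 0.0202). The WT libraries varied more than counting alone gives, with a coefficient of variation of 43.9% against 15.5% from the counts, whereas the GFAP-IL6 libraries had 12.6% against 12.2%. Without WT replicate 3 the log2 fold change of Cd74 was 1.03. The adjusted p was 0.0503, 0.0695 and 0.154 without GFAP-IL6 replicate 1, 2 and 3, so that the call was lost in these 3 fits.

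H2-Ab1, the beta chain of I-A (ENSMUSG00000073421.5, chromosome 17, 34257689 to 34269419, plus strand, GRCm38), had the largest fold change among members with all 6 libraries, though Cd74 exceeded it without WT replicate 2 (log2 fold changes of 1.74 and 1.70) and H2-Eb1 exceeded it without GFAP-IL6 replicate 3 (1.45 and 1.37). WT replicates held 17, 19 and 15 of its reads, against 37, 20 and 50 in the shallower GFAP-IL6 libraries. In CPM these were 1.48, 1.13 and 0.942 in WT and 3.32, 2.64 and 5.58 in GFAP-IL6. The GFAP-IL6 libraries were all above the WT libraries, and replicate 3 was the highest. H2-Ab1 rose from 1.19 ± 0.273 to 3.85 ± 1.54 CPM (SD, n = 3 each), with a log2 fold change of 1.72 (SE 0.32, adjusted p by edgeR 0.0108). The call was lost in 1 of 11 alternative fits, without GFAP-IL6 replicate 3, at an adjusted p of 0.0912. Without WT replicate 3 the log2 fold change of H2-Ab1 was 1.58.

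H2-Aa, the alpha chain that pairs with H2-Ab1 (ENSMUSG00000036594.12, chromosome 17, 34282744 to 34287823, minus strand), was measured at 1.83, 2.62 and 0.753 CPM in WT and at 3.59, 2.77 and 5.47 CPM in GFAP-IL6. The groups did not overlap, but WT replicate 2 came close to GFAP-IL6 replicate 2. The means were 1.74 ± 0.939 and 3.94 ± 1.38 CPM (SD, n = 3 each), and the fold change was 2.27 with a 95% interval of 1.28 to 4.05. H2-Aa was not past the threshold, with an adjusted p of 0.123 by edgeR. Among alternatives this adjusted p was between 0.00688 and 0.428, with a call without the low-count filter and without WT replicate 2. The log2 fold change of H2-Aa was 1.18, and 0.80 without WT replicate 3.

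H2-Eb1, the beta chain without a partner in this strain (ENSMUSG00000060586.10, chromosome 17, 34305867 to 34316674, plus strand), carries the combined X1 and Y motif shown above. Its level was 1.65, 1.61 and 0.691 CPM in WT and 3.76, 3.30 and 3.68 CPM in GFAP-IL6. The 3 GFAP-IL6 libraries were all above the highest WT library. They were close to each other, with a coefficient of variation of 6.91% against 17.5% from the counts alone. That closeness is under counting error and does not show that the mice were alike. H2-Eb1 rose from 1.32 ± 0.544 to 3.58 ± 0.248 CPM (SD, n = 3 each), with a log2 fold change of 1.46 (SE 0.31, adjusted p by edgeR 0.0221). It was called in 7 of 11 alternative fits. The 4 without a call left out WT replicate 3 (adjusted p of 0.0523, log2 fold change of 1.14) or one of the GFAP-IL6 libraries (0.0649 to 0.127).

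**Figure D2:**
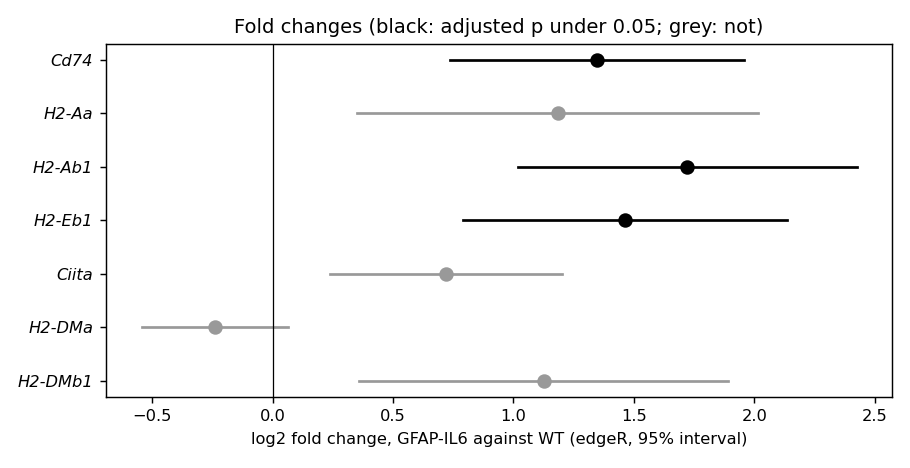
Log2 fold change of GFAP-IL6 against WT for each member with its 95% interval from edgeR, black where the adjusted p was under 0.05 and grey where it was not. The intervals of 6 members lie above 0, and that of H2-DMa, from -0.54 to 0.065, spans it.

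The chains of DM, the peptide exchanger, had fold changes on opposite sides of 1, and neither was called. For H2-DMb1 (ENSMUSG00000079547.3, chromosome 17, 34153072 to 34160230, plus strand) as few as 8 counts were available in a library. The level of H2-DMb1 was 0.958, 1.31 and 0.502 CPM in WT and 1.79, 2.24 and 2.12 CPM in GFAP-IL6, without overlap. The fold change of H2-DMb1 was 2.18 with a 95% interval of 1.28 to 3.71, and its adjusted p of 0.113 by edgeR was not past the threshold, although it passed without WT replicate 2 (0.0418). Its log2 fold change was 1.13, and 0.81 without WT replicate 3. Of the 50-base stretches of its transcripts, 22.65% also occurred in transcripts of the neighbour H2-DMb2, and how reads from them were assigned was not tested. H2-DMb2 had 1 to 4 counts in each library.

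H2-DMa (ENSMUSG00000037649.9, chromosome 17, 34119541 to 34139101, plus strand) was at 10.02, 10.3 and 9.48 CPM in WT and at 9.32, 7.92 and 7.81 CPM in GFAP-IL6. Every GFAP-IL6 library lay under the lowest WT library, but GFAP-IL6 replicate 1 at 9.32 CPM came close to WT replicate 3 at 9.48 CPM. Counting alone gives a coefficient of variation of 8.39% in WT and 11.5% in GFAP-IL6, so their order is within counting error. The fold change was 0.847 with a 95% interval of 0.686 to 1.046 and an adjusted p of 0.351 by edgeR, so that a rise of the size seen in H2-Ab1 lay outside the interval of H2-DMa. Its log2 fold change was -0.24, and -0.27 without WT replicate 3. In the GENCODE M21 annotation, 10.44% of the exon bases of H2-DMa lie in exons of Brd2 on the opposite strand. The authors counted on an earlier GENCODE release. H2-DMa has 3448 exon bases in M21 but a length of 1555 bases in the count table, so the overlap in the counted exons may differ. Brd2 was more abundant, at 174 ± 7.80 CPM in WT and 176 ± 4.68 CPM in GFAP-IL6 (SD, n = 3 each), and its adjusted p by edgeR was 0.890. Whether the strand of reads was used in the counting is not given in the sources used here, and the part of Brd2 reads in the value of H2-DMa was not tested.

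Ciita, the coactivator of the family (ENSMUSG00000022504.9, chromosome 16, 10480059 to 10528418, plus strand), had the lowest level per length. The level of Ciita was 2.79, 2.45 and 2.13 CPM in WT and 4.21, 3.43 and 4.35 CPM in GFAP-IL6. The groups did not overlap. Coefficients of variation were 13.3% in WT and 12.4% in GFAP-IL6, against 17.0% and 16.6% from the counts alone. A spread under that of counting does not show that Ciita varied little between mice. The fold change of Ciita was 1.65 with a 95% interval of 1.18 to 2.30. On the log2 scale it was 0.72, and 0.63 without WT replicate 3. Its adjusted p was 0.108 by edgeR and stayed between 0.0660 and 0.367 in the 11 alternatives, none of which called it.

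In TPM, the order of members in WT was H2-DMa at 17.7 ± 0.722, Cd74 at 5.71 ± 2.42, H2-Aa at 4.24 ± 2.22, H2-Eb1 at 3.09 ± 1.28, H2-Ab1 at 2.72 ± 0.688, H2-DMb1 at 1.82 ± 0.769 and Ciita at 1.30 ± 0.197 (SD, n = 3 each). Only H2-DMa was separated from its neighbour, while the ranges of all other neighbours overlapped. In GFAP-IL6, H2-DMa at 15.7 ± 1.74 TPM and Cd74 at 15.4 ± 1.86 TPM overlapped. H2-Aa followed at 10.2 ± 3.54, H2-Ab1 at 9.26 ± 3.68 and H2-Eb1 at 8.83 ± 0.677 TPM, again with overlapping ranges. H2-DMb1 at 4.26 ± 0.446 TPM was below all of these in every library, and Ciita at 2.22 ± 0.286 TPM was below H2-DMb1.

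The proportion of partner chains was compared as the log2 ratio of TPM in each library, by an exact two-sided permutation test over libraries. In all, 5 ratios were tested, and 3 against 3 libraries cannot give a p under 0.1. H2-DMa exceeded H2-DMb1 by 9.44-fold, 7.06-fold and 17.0-fold in WT and by 4.70-fold, 3.19-fold and 3.33-fold in GFAP-IL6. This ratio did not overlap between groups, with a difference in log2 ratio of -1.50 (exact permutation p of 0.1, adjusted p of 0.25) that was -1.15 without WT replicate 3. H2-Aa exceeded H2-Ab1 by 1.32-fold and 2.48-fold in WT replicates 1 and 2 and was at 0.856 of it in WT replicate 3, and the ratio was 1.16, 1.12 and 1.05 in GFAP-IL6. The groups overlapped through WT replicate 3, with a difference of -0.35 (exact permutation p of 0.7, adjusted p of 0.8). Without that library they did not overlap, and the difference was -0.71 (exact permutation p of 0.1, the smallest possible, adjusted p of 0.167). The ratio of H2-Eb1 to H2-Ab1 and that of Cd74 to the sum of H2-Aa and H2-Ab1 also overlapped, with differences of -0.10 and 0.033 (exact permutation p and adjusted p of 0.8 for each). Without WT replicate 3 these differences were -0.37 and -4.4e-06. The last of these ratios ranged from 0.762 to 0.897 in WT and from 0.637 to 1.11 in GFAP-IL6.

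**Figure D3:**
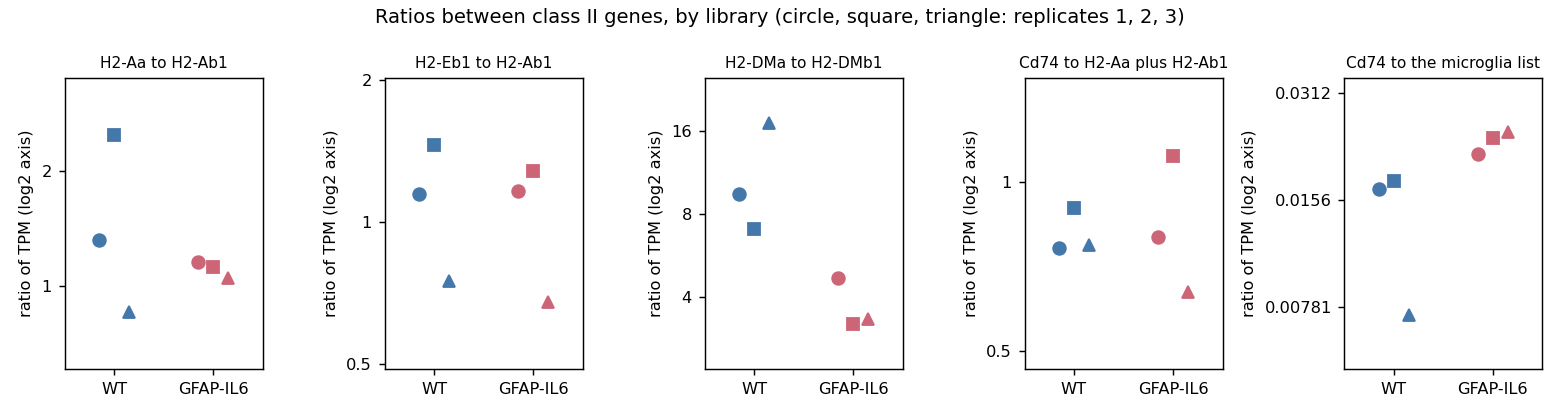
Ratios of TPM between class II genes in every library on log2 axes, with circles, squares and triangles for replicates 1, 2 and 3. The groups overlap in the ratios among H2-Aa, H2-Ab1, H2-Eb1 and Cd74, for H2-Aa to H2-Ab1 only through the triangle of WT replicate 3, and do not overlap for H2-DMa to H2-DMb1 or for Cd74 to the summed microglia markers.

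The other genes of the class II pathway were taken from 6 lists with 38 genes, of which 28 could be tested. Of these, 7 were higher in GFAP-IL6 at an adjusted p under 0.05 by edgeR, and 0 were lower. The share higher was 25% of those tested, against 2.65% of all genes tested. Without GFAP-IL6 replicate 3 the number was 2. Their median log2 fold change was 0.12.

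Antigen processing enzymes held 5 of the 7 genes called, and their median log2 fold change was 0.47 over 7 genes. Ctss, the cathepsin that makes the last cuts in the invariant chain, rose from 57.2 to 214 CPM, a log2 fold change of 1.90 with an adjusted p of 7.45e-06. Ifi30, the thiol reductase that unfolds antigens in endosomes, rose from 2.06 to 9.10 CPM, a log2 fold change of 2.14 with an adjusted p of 8.99e-05. The increases of the cathepsins Ctsl and Ctsd and of the legumain gene Lgmn were smaller, with log2 fold changes of 0.41, 0.50 and 0.47 and adjusted p values of 0.0187, 0.00973 and 0.00678. Ctsb, another cathepsin, and Sppl2a, the membrane protease that clears the last stub of the invariant chain, had log2 fold changes of 0.036 and 0.0023 with adjusted p values of 0.820 and 0.993.

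None of the 7 factors that bind class II promoters was called, and their median log2 fold change was 0.044. The RFX subunit genes Rfx5 and Rfxap had log2 fold changes of 0.15 and -0.17 with adjusted p values of 0.469 and 0.359. Nfyb, an NF-Y subunit, was the single gene of the list with an unadjusted p under 0.05, with a log2 fold change of -0.35 and an adjusted p of 0.0798.

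Among genes that induce Ciita, 1 of 7 tested was called. Ifngr1, the ligand-binding chain of the interferon gamma receptor, rose from 13.9 to 24.6 CPM, a log2 fold change of 0.81 with an adjusted p of 0.00662. Irf1, which acts downstream of that receptor, had a log2 fold change of 0.62 with an adjusted p of 0.0803. Ifng, which encodes the ligand itself, had 0 counts in all 6 libraries. The floor of 3 counts corresponded to between 0.179 and 0.396 CPM, and covers counting error only.

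Of 5 tested genes for control at the surface and costimulation, 1 was called. Cd86, a costimulatory ligand of T cells, rose from 2.55 to 5.51 CPM, a log2 fold change of 1.12 with an adjusted p of 0.0195. Cd80, its relative, had 3 to 12 counts and was not tested. March1, the ubiquitin ligase that removes class II from the surface, had a log2 fold change of -0.085 (adjusted p of 0.648), and Cd83, which opposes it, one of -0.13 (0.513). Neither of the 2 tested genes for the ligand and co-receptors of Cd74 was called, as the ligand Mif had a log2 fold change of -0.14 (0.340) and Cd44 one of 0.55 (0.403). The class II genes outside the 7 members were near the floor. H2-Oa and H2-Ob, which encode the inhibitor of DM, had 1 to 7 and 5 to 13 counts. The groups did not overlap in CPM for H2-Oa, with a mean of 0.252 in WT and 0.571 in GFAP-IL6, and overlapped for H2-Ob. H2-Eb2 had at most 1 count, and none passed the filter on low counts.

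**Figure D4:**
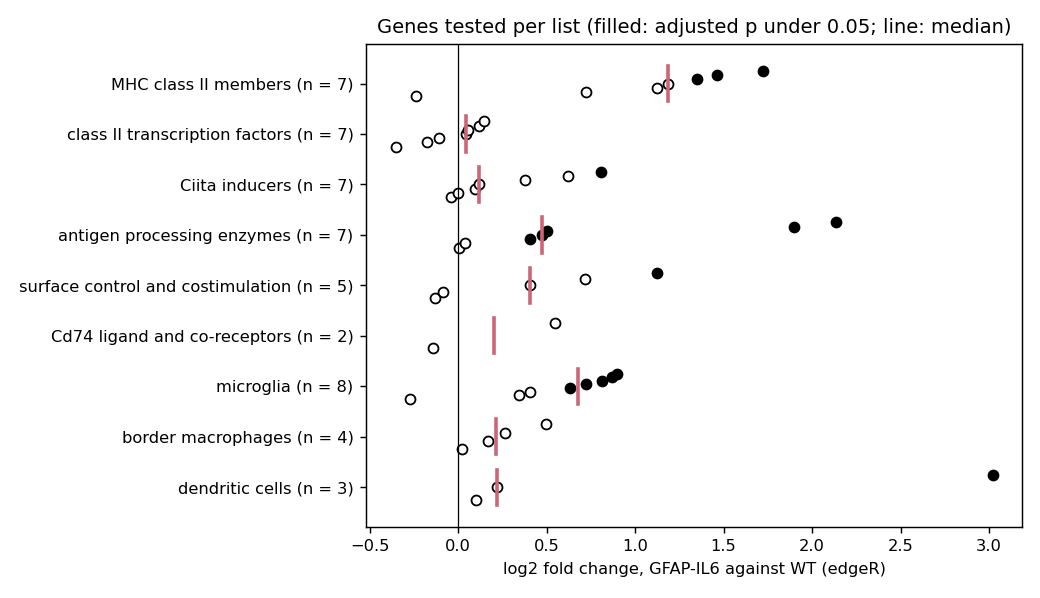
Log2 fold change by edgeR of each gene tested in the class II members, 5 pathway lists and 3 lists of cell type markers, filled where the adjusted p was under 0.05, with the median of each list as a line. The medians are 1.18 for the members, 0.47 for antigen processing enzymes, 0.68 for microglia and 0.044 for the factors that bind class II promoters.

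Markers of cells that can carry class II were examined beside the members. Of 8 microglia markers 5 were higher at an adjusted p under 0.05, against 2.65% of all genes tested, and the median log2 fold change was 0.68. Csf1r and Cx3cr1, a growth factor receptor and a chemokine receptor of microglia, had log2 fold changes of 0.87 and 0.63 (adjusted p of 0.000149 and 0.00255), and those of Tmem119 and Aif1 were 0.81 and 0.90 (0.00142 and 0.0283). P2ry12, a purinergic receptor of resting microglia, had a log2 fold change of -0.27 (0.291). The summed level of the list was 363 to 443 CPM in WT and 606 to 693 CPM in GFAP-IL6. Relative to this sum in TPM, Cd74 was at 0.0168, 0.0177 and 0.00740 in WT and at 0.0211, 0.0233 and 0.0243 in GFAP-IL6. These ratios did not overlap, with a log2 difference of 0.81 (exact permutation p of 0.1, adjusted p of 0.25) that was 0.41 without WT replicate 3.

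Border macrophage markers, with 4 of 8 tested, held 0 called genes by edgeR, 0 with an unadjusted p under 0.05, and a summed level that overlapped between groups at 8.04 to 14.1 CPM in WT and 10.04 to 16.6 CPM in GFAP-IL6. Mrc1 and Cd163, scavenger receptors of these cells, had log2 fold changes of 0.26 and 0.17 with adjusted p values of 0.614 and 0.767. Of the dendritic cell list, 3 of 8 genes were tested and 1 was called. That was Itgax, an integrin also found on activated microglia, with 1 to 5 counts per WT library, 12 to 24 per GFAP-IL6 library and a log2 fold change of 3.02 (adjusted p of 0.00101). Flt3, the receptor that dendritic cells need to develop, had a log2 fold change of 0.22 (0.426), and Zbtb46, a transcription factor of these cells, one of 0.099 (0.709). Xcr1, Clec9a and Ccr7 had at most 3 counts in any library, Cd209a had 0 to 11 and Batf3 had 4 to 16, and these 5 genes were not tested. The summed level of this list was 25.4 to 28.8 CPM in WT and 30.1 to 32.3 CPM in GFAP-IL6.

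None of the monocyte genes could be tested. Ccr2, the receptor of their recruitment, had 2, 11 and 8 counts in WT libraries and 14, 5 and 13 in those of GFAP-IL6. Each GFAP-IL6 library was above those of WT in CPM, but replicate 2 only by 0.660 against 0.656 in WT replicate 2. In that GFAP-IL6 library 1 count equals 0.132 CPM, so this order is within counting error. Ly6c2 had at most 1 count. The summed level of the list was 0.348 to 1.19 CPM in WT and 1.06 to 2.23 CPM in GFAP-IL6. B cell genes had a summed level of 31.2 to 37.9 CPM in WT and 36.6 to 42.8 CPM in GFAP-IL6, nearly all of it from Ighm. Ighm had a log2 fold change of 0.16 (adjusted p of 0.392), and the B cell receptor gene Cd79a had at most 3 counts in any library. Of 7 T cell genes 2 were tested and 0 were called or had an unadjusted p under 0.05. Their summed level was 1.83 to 3.40 CPM in WT and 2.46 to 3.68 CPM in GFAP-IL6, with Cd3d at 0 counts in all libraries, and Cd3e at 0 counts in all WT libraries and at 3, 1 and 2 in GFAP-IL6. The 2 T cell genes tested had opposite signs. Cd4, with means of 1.64 CPM in WT and 1.19 CPM in GFAP-IL6, overlapped, with a log2 fold change of -0.51 (adjusted p by edgeR of 0.562). Lck, with means of 0.710 and 1.13 CPM, had a log2 fold change of 0.66 (0.279). For Lck each GFAP-IL6 library was above those of WT. Cd8a showed this order too, at no more than 3 counts, while Cd3g and Trac overlapped. The part of any of the cell types examined here in the levels of the class II members was not tested.

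The genes whose spread within groups was most like that of the class II members were sought over the 6 libraries. Log2(CPM + 0.5) was centred within each group, which removes the difference between groups, and correlated with the mean of Cd74, H2-Aa, H2-Ab1 and H2-Eb1. Among 12088 genes the highest Pearson coefficients were those of Slc6a13 (0.999), Thoc5 (0.996), Bche (0.994), Ino80e (0.991) and Ruvbl2 (0.988). These values describe 6 libraries that differ in depth and in choroid plexus genes, and come from the top of many genes. Of the 5 genes, none was past an adjusted p of 0.05 between groups. Bche was at this threshold, with a log2 fold change of -1.11 (adjusted p by edgeR of 0.05004), opposite in sign to the 4 class II genes. The log2 fold changes of the other genes were between -0.20 and 0.20. Among the members, the coefficient with this mean was 0.774 for Ciita, 0.795 for H2-DMb1 and 0.187 for H2-DMa.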

How the data were processed

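TruSeq mRNA libraries of frontal cortex from 3 WT and 3 GFAP-IL6 mice were analysed, with groups and replicate numbers read from titles. The deposited table holds raw counts of reads for every gene and the length of each gene. The authors had mapped reads to mm10 by STAR 2.4 and counted them on GENCODE genes by featureCounts. The labels list hg19 as build, but the gene identifiers are those of mouse. Of 33000 identifiers, 32593 matched GENCODE M21 on GRCm38, from which positions and exon overlaps were taken, and promoters came from RefSeq on GRCm38.p6. H2-Ea-ps was not analysed here.

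All libraries were fitted together by the quasi-likelihood F-test of edgeR (version 4.0.16, R 4.3.3), with TMM scaling, filterByExpr and Benjamini-Hochberg adjustment over 15341 genes. Standard errors were derived from the F statistic. A gene was called at an adjusted p under 0.05. Alternatives were DESeq2 1.42.0, the tool of the authors, other scaling and filters, a replicate block and fits without each library. Totals of 7559524 to 16877001 counts limit the precision of these low genes. The unadjusted counting error of a level was taken as the square root of its count, and reads without molecular identifiers are not independent molecules. Samples are separate mice.

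Named were the members, Il6 and Gfap, from each list the genes called and the first 2 genes, and the 5 genes most alike, while further list members, Brd2 and defining markers at few counts were chosen after their values were seen. Some genes of the lists are not reported here by name. Members and lists were chosen with earlier results of these data known.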

Additional observations from a re-analysis of the deposited data

How the results depend on the processing

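The direction of all 7 members held in each of the 11 alternatives, which were DESeq2 size factors, no low-count filter, a filter at a mean CPM of at least 1, DESeq2, a replicate block and 6 fits without a library. The number of members called and that of DEGs among them were each between 0 and 5 without a library, lowest without GFAP-IL6 replicate 3, and 3 or 4 elsewhere. The genes called of all tested numbered 439, against 1154 without the low-count filter, 750 with a replicate block and between 187 (without GFAP-IL6 replicate 3) and 1061 (without WT replicate 1) without a library. The pathway genes called were between 2 and 8 without a library, and 10 without the low-count filter. The cause of these shifts was not tested. Same-numbered libraries correlated in their deviations by 0.112, 0.0172 and 0.0350, and not every library was most like its own number, so the numbers were not taken as pairs. The replicate block left 3 members called. Without a library the log2 ratio difference was between -0.71 and 0.060 for H2-Aa to H2-Ab1, between -0.37 and 0.18 for H2-Eb1 to H2-Ab1 and between -0.18 and 0.22 for Cd74 to H2-Aa plus H2-Ab1, so these had no stable sign. The other ratios kept theirs. Depth limits the members, of which H2-DMb1 had as few as 8 counts in a library. Fits without a library leave 2 mice in a group.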
